A study of Mus musculus with 9 samples.

Results

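Astrocyte transcripts were followed in microglia sorted from the brains of 9 mice. The transcripts are 9 genes known as astrocyte markers (S100b, Aldoc, Sparcl1, Gfap, Aqp4, Slc1a2, Slc1a3, Gja1 and Mt3), of 19938 genes that had a probe set annotated to them alone. Each of the 9 had exactly 1 such probe set, so no choice among probe sets was needed. All mice were 8.5 months old, carried 5XFAD (human transgenes that drive amyloid deposition) and lacked mouse TREM2, a receptor of microglia. On that background 3 mice expressed the R47H variant of human TREM2 (R47H), 3 expressed its common variant (CV) and in 3 human TREM2 was absent (KO). Mouse 1 of every group was female and mice 2 and 3 were male, each array being from its own mouse by the labels. No source used here names the promoter of the human gene. Per the labels' protocols, perfused brains were dissociated, CD45+ CD11b+ cells were sorted, and labelled material was made from 2 ng of total RNA for 1 array per mouse.

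Astrocytes are the glia that take up glutamate from synapses, buffer potassium and water around vessels, and supply neurons with metabolites. They carry neither CD45 nor CD11b, so the sort was not set to keep them. A transcript that marks astrocytes in whole brain need not be theirs alone: S100b is also made by cells of the oligodendrocyte lineage, Sparcl1 by neurons and vessel cells, and Mt3 by neurons. Astrocytes near amyloid plaques are known to raise the filament protein Gfap.

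The values are log2 probe set levels as deposited, and a difference of 1 is a 2-fold difference. The arrays were alike in their medians (5.28 to 5.35) and in their correlations over all probe sets (0.981 to 0.99). Microglial identity was plain on every array: the mean level of 17 microglial markers lay at 11.55 to 11.58 in R47H, 11.45 to 11.48 in CV and 11.54 to 11.63 in KO, and 0 of them had a mean below 5.31, the median of all probe sets. Genes with a mean at or above that median were tested (10795 genes). Of the 9 astrocyte transcripts 6 passed (S100b, Aldoc, Sparcl1, Slc1a2, Slc1a3 and Mt3), while Gja1, Gfap and Aqp4 did not. For those 3 the intervals and p-values come from a fit of all 19938 genes. The threshold for a call was 0.05 on the two-sided p of a limma model with genotype and sex, adjusted by Benjamini-Hochberg. Array number limits the precision. Separately, with 3 mice against 3 an exact permutation test, which was not used here, cannot go below p = 0.1.

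The 9 genes were unlike in level and spread, and which cells gave their signal was not tested. Aqp4, the water channel of astrocyte endfeet, read 4.48 on 7 of 9 arrays, the same value to every deposited decimal, and never rose above 4.54. Aldh1l1, a folate enzyme used as a pan-astrocyte marker, lay at 4.81 to 5.03 in R47H, 4.74 to 4.81 in CV and 4.59 to 4.81 in KO. Both stayed below the median of all probe sets on every array. By contrast S100b, Sparcl1, Aldoc and Gja1 spread by 1.82 to 2.51 over the 9 arrays. The transcripts are therefore described gene by gene, and not as a measure of astrocytes.

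S100b and Sparcl1 were the members called higher in the R47H arrays than in the CV arrays. S100b encodes a small calcium-binding protein that glia also secrete. It read 7.90, 7.86 and 7.83 in R47H mice 1, 2 and 3, against 5.77, 5.61 and 5.85 in CV mice 1, 2 and 3, and 7.13, 6.71 and 5.74 in KO mice 1, 2 and 3. The R47H arrays lay close together and above all others, and the KO arrays were spread widely, KO mouse 3 lying among the CV arrays. S100b was 4.35-fold higher in R47H than in CV (log2 difference 2.12 ± 0.26 SE, limma adjusted p = 0.0127), which was rank 3 among the positive differences. In R47H minus KO the difference was 1.33 ± 0.26 (adjusted p = 0.144), and in CV minus KO it was -0.78 ± 0.26 (adjusted p = 0.243).

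Sparcl1 encodes a secreted matrix protein related to SPARC that astrocytes release at synapses. Its values were 6.93, 6.87 and 7.41 in R47H, 5.29, 5.36 and 4.94 in CV, and 5.79, 5.61 and 4.90 in KO, in the order of mice 1, 2 and 3. Every R47H array lay more than 1 log2 unit above every CV and KO array, and the CV and KO arrays overlapped. Sparcl1 was 3.67-fold higher in R47H than in CV (1.87 ± 0.23, limma adjusted p = 0.0134). In R47H minus KO the difference was 1.64 ± 0.23 (adjusted p = 0.0535), rank 4 among the positive differences but outside the threshold. Its mean without the R47H arrays was 5.31, at the filter, and in the fit of all genes its adjusted p was 0.0269 in R47H minus CV. In CV minus KO it was -0.23 ± 0.23 (adjusted p = 0.721).

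The calls of S100b and Sparcl1 in R47H minus CV depended on single arrays. Without any 1 of those 6 arrays S100b missed the threshold (adjusted p = 0.051 to 0.0995), with differences of 1.97 to 2.26. Sparcl1 missed it without R47H mouse 1 (adjusted p = 0.0602), CV mouse 1 (0.0995) or CV mouse 3 (0.0827), with differences of 1.66 to 2.06 over all removals. Without KO mouse 3 the adjusted p was 0.000251 for S100b and 0.00325 for Sparcl1, with differences of 2.12 and 1.87. Without KO mouse 3, S100b was also called lower in CV than in KO, at -1.15 (adjusted p = 0.00408).

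**Figure D1:**
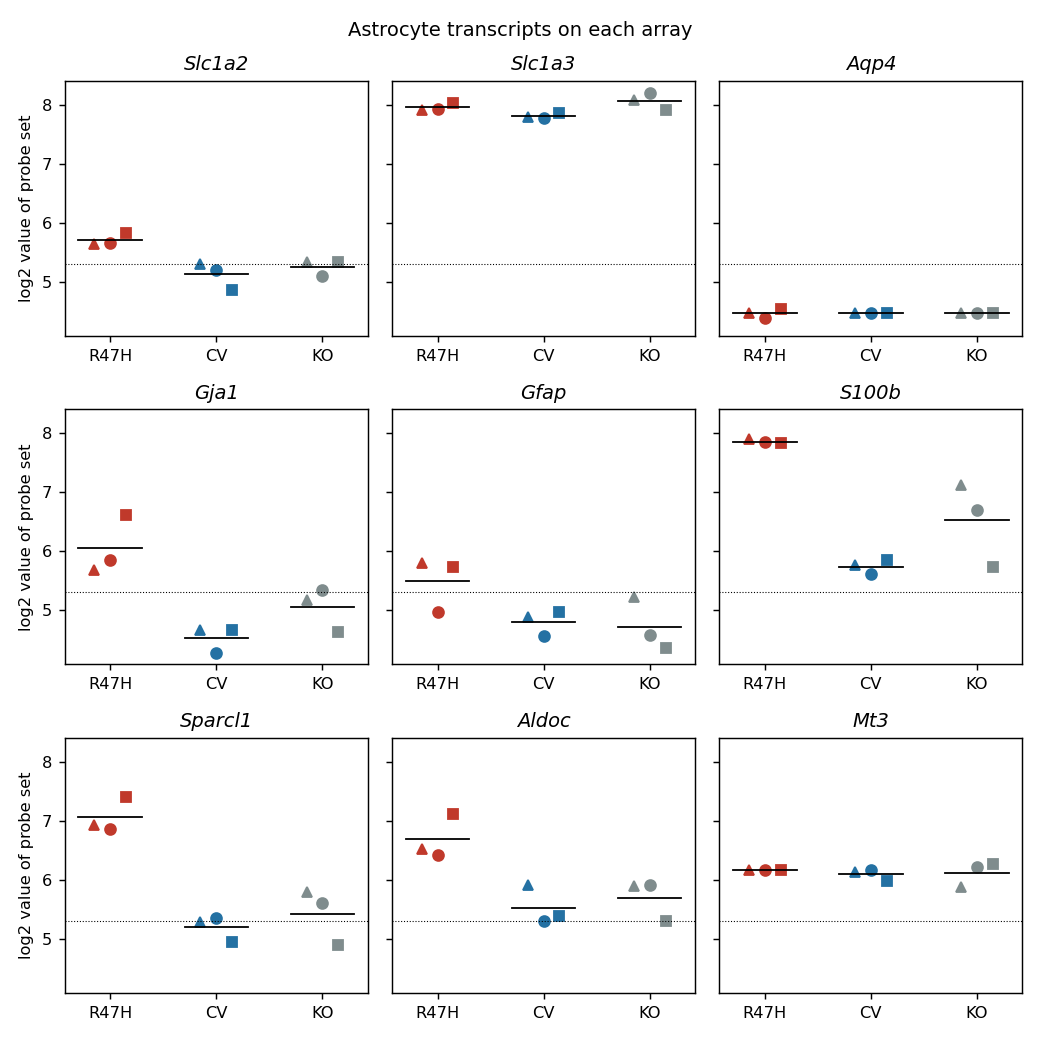
Log2 value of each astrocyte transcript (vertical axis) on every array, for R47H, CV and KO from left to right. A triangle marks mouse 1 (female), a circle mouse 2 and a square mouse 3 (males), the bar marks the group mean of 3 mice, and the dotted line marks the median of all probe sets (5.31). The R47H arrays lie above all others for Slc1a2, Gja1, S100b, Sparcl1 and Aldoc, while Aqp4 and Mt3 are nearly level.

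Aldoc and Mt3 serve metabolism and metal binding. Aldoc, the brain isoform of the glycolytic enzyme aldolase, read 6.52, 6.43 and 7.12 in R47H, against 5.91, 5.30 and 5.39 in CV and 5.90, 5.91 and 5.30 in KO. The 3 R47H values exceeded all 6 others, with R47H mouse 3 highest. The difference was 1.16 ± 0.23 in R47H minus CV (limma adjusted p = 0.0777) and 0.99 ± 0.23 in R47H minus KO (adjusted p = 0.304), so neither passed, and in CV minus KO it was -0.17 ± 0.23 (adjusted p = 0.799). Mt3, a metallothionein of the brain that binds zinc and copper, averaged 6.17 in R47H, 6.10 in CV and 6.12 in KO. Its differences had 95% intervals of -0.18 to 0.28 in R47H minus KO, -0.25 to 0.21 in CV minus KO and -0.16 to 0.31 in R47H minus CV.

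Slc1a2 and Slc1a3 encode the glial glutamate transporters. Slc1a2, known as GLT-1, which clears most synaptic glutamate, read 5.65, 5.66 and 5.83 in R47H, 5.31, 5.21 and 4.86 in CV, and 5.33, 5.10 and 5.33 in KO. Its R47H values were again the 3 highest, by a small margin. Slc1a2 passed the filter only through R47H, its mean over the other 6 arrays being 5.19. The difference was 0.58 ± 0.12 in R47H minus CV (limma adjusted p = 0.0874), 0.46 ± 0.12 in R47H minus KO (adjusted p = 0.451) and -0.13 ± 0.12 in CV minus KO (adjusted p = 0.712). Slc1a3, known as GLAST, read 7.92, 7.94 and 8.04 in R47H, 7.80, 7.78 and 7.87 in CV, and 8.08, 8.21 and 7.92 in KO. Here the highest values were in KO, and every CV array lay below every KO array, an order found in 6.2% of all genes. Every CV array also lay below every R47H array, by a small margin (7.87 against 7.92). The difference was -0.25 ± 0.09 in CV minus KO (adjusted p = 0.256), 0.15 ± 0.09 in R47H minus CV (adjusted p = 0.55) and -0.11 ± 0.09 in R47H minus KO (adjusted p = 0.95), and none passed.

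Gja1, Gfap and Aqp4 had means below the median of all probe sets. Gja1 encodes the connexin that forms most gap junctions between astrocytes. It read 5.68, 5.85 and 6.62 in R47H, 4.67, 4.28 and 4.66 in CV, and 5.17, 5.35 and 4.64 in KO. R47H lay above both other groups, with R47H mouse 3 highest, and CV overlapped KO. The difference was 1.51 ± 0.27 in R47H minus CV (limma fit of all genes, adjusted p = 0.0828), 1.00 ± 0.27 in R47H minus KO (adjusted p = 0.57) and -0.51 ± 0.27 in CV minus KO (adjusted p = 0.621).

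Gfap, the intermediate filament of astrocytes, read 5.80, 4.97 and 5.74 in R47H, 4.88, 4.57 and 4.97 in CV, and 5.23, 4.58 and 4.36 in KO. R47H mouse 2 lay within the range of the KO arrays, and the female, mouse 1, was the highest array within R47H and within KO. Its difference was 0.70 ± 0.21 in R47H minus CV (limma fit of all genes, adjusted p = 0.344), 0.78 ± 0.21 in R47H minus KO (adjusted p = 0.579) and 0.08 ± 0.21 in CV minus KO (adjusted p = 0.937). Aqp4 differed by -0.01 in R47H minus KO and in R47H minus CV, each with an interval of -0.15 to 0.13, and its value was the same on all CV and KO arrays.

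Identical values such as those of Aqp4 were common in the deposited table. A value shared by 3 or more arrays occurred in 32.6% of all probe sets, in 27.6% of the genes tested and in 55.6% of the genes below the filter. Among the astrocyte transcripts it occurred in Aqp4 (7 arrays) and Mt3 (3 arrays). What makes arrays share a value was not tested, and a group whose arrays share one has no measured spread there.

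**Figure D2:**
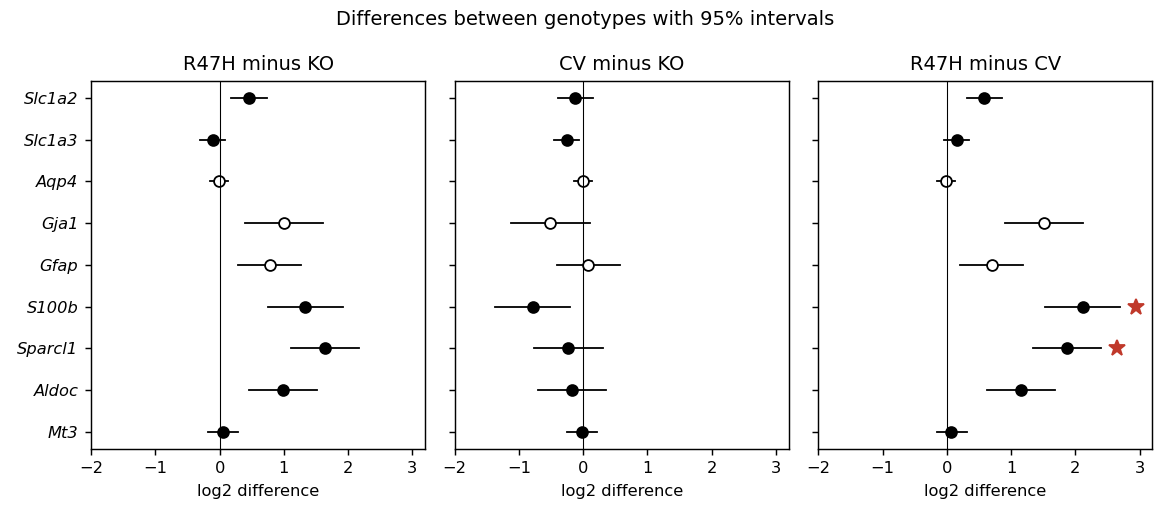
Log2 differences (horizontal axes) of the astrocyte transcripts in R47H minus KO, CV minus KO and R47H minus CV, with 95% intervals from limma as lines. Filled points are genes in the main test, open points are genes below the filter on low values, taken from the fit of all genes, and stars mark adjusted p under 0.05. S100b and Sparcl1 in R47H minus CV (2.12 and 1.87) carry the only stars.

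As a group, 2 of the 6 tested members were called higher in R47H than in CV and 0 lower, where 0.38% of all tested genes were called higher. The median difference over all 9 was 0.70, beside 0.00 over all genes, and 8 of 9 differences were positive. Relative to KO, limma called 0 of the 6 tested members, where 0.0648% of tested genes were called higher. At an unadjusted p under 0.05, 4 were higher (3.53% of tested genes were), or 3 of 5 without Slc1a2, which had to be high in R47H to be tested. The median over the 9 was 0.78, beside -0.01 over all genes. In CV minus KO limma also called 0 of 6, where 0.259% of tested genes were called lower, and the median was -0.17, beside -0.02. S100b and Slc1a3 were lower there at an unadjusted p under 0.05, as were 6.95% of tested genes. An F-test of any genotype difference in the same model called S100b (adjusted p = 0.0144) and Sparcl1 (adjusted p = 0.0113), 2 of 6, where 1.32% of tested genes were called. The 3 comparisons share arrays, so they are not separate evidence, and the members had been chosen with earlier results of these arrays known.

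For 5 of the 9 genes (S100b, Sparcl1, Aldoc, Gja1 and Slc1a2) every R47H array lay above every CV and KO array, which holds for 1.44% of all genes. The order of the group means in these 5 was R47H, KO, CV, and the lower pair, KO and CV, overlapped in each. KO mouse 3 was the lowest KO array for 6 of the 9 genes, and R47H mouse 3 was the highest array of all for 5. Between the sexes limma called 0 of 6 tested members (0 at an unadjusted p under 0.05), where 0.0648% of tested genes were called, and female minus male ran from -0.10 (Mt3) to 0.44 (Gfap, not among those tested).

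Promoter sequences are printed for S100b, Gja1 and Aldoc, whose R47H arrays stood above all others, and for Slc1a3, whose arrays did not. Slc1a2, whose R47H arrays also stood above all others, had a window that is not printed. RefSeq windows (GRCm38.p6, 250 bases before to 50 after a gene start) were matched by gene ID for 7 of the 9 genes, and the first window is shown where a gene had several. They were searched on both strands for 5 motifs: TATAAA (the TATA box), TGANTCA (a site of AP-1), GGGCGG (the GC box bound by Sp1), ACAAAG (a core bound by SOX proteins) and the full palindromic site of nuclear factor I, which acts in astrocyte development. Capitals mark the matches.
S100b (chr10:76253586-76253885, + strand): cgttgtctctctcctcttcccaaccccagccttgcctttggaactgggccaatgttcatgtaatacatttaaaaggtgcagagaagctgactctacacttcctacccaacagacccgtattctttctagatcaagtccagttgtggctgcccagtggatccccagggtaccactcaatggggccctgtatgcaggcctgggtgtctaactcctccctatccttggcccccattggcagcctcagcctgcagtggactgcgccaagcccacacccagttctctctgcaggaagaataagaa
Gja1 (chr10:56377050-56377349, + strand): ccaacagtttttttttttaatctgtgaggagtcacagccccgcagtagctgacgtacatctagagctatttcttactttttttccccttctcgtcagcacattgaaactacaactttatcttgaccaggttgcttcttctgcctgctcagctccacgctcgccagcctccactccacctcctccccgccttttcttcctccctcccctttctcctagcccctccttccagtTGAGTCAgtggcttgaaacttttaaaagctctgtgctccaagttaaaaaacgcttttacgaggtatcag
Aldoc (chr11:78322823-78323122, + strand): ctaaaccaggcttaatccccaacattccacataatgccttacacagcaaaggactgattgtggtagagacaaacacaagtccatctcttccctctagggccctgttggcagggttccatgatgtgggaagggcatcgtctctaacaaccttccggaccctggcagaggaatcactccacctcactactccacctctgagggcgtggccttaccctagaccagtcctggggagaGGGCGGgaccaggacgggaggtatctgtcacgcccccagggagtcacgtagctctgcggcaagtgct
Slc1a3 (chr15:8710758-8711057, - strand): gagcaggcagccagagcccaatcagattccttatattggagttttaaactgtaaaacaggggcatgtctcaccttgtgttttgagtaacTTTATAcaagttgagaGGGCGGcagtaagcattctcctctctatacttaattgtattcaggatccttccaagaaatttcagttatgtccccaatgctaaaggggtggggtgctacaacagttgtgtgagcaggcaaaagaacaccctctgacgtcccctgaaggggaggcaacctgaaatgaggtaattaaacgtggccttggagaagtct

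The S100b window held none of the 5 motifs, nor did the window of Slc1a2, which is not printed. Gja1 held an AP-1 site that begins 19 bases before the start, a motif found in 7.81% of all 32851 windows of this length. Aldoc held a GC box 17 bases before the start, and Slc1a3 held one 145 bases before it, as did 35.7% of windows. Slc1a3 also held the TATA letters on the other strand 161 bases before the start (13.6% of windows). The SOX core (18.7% of windows) and the full nuclear factor I site (0.0365%) were found in none of the 4 printed windows. No 2 matches overlapped, and no motif was common to S100b, Gja1 and Aldoc. These matches are letters in a window and say nothing about binding.

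Among 38 further astrocyte genes 36 had a probe set and 20 were tested. In R47H minus CV 2 were called higher and 0 lower, where 0.38% and 0.417% of all tested genes were. The median over the 36 was 0.27, beside 0.00 over all genes, with 29 positive (10355 of 19938 over all genes). Those called were Ndrg2, a hydrolase-like protein enriched in astrocytes (0.90 ± 0.16, limma adjusted p = 0.0448), and Cpe, a peptide-processing enzyme also made by neurons and endocrine cells (1.17 ± 0.18, adjusted p = 0.0317). Ndrg2 read 7.61, 7.49 and 7.71 in R47H, 7.11, 6.70 and 6.30 in CV, and 6.89, 6.41 and 6.21 in KO. Cpe read 6.07, 5.77 and 6.19 in R47H, 4.73, 5.06 and 4.72 in CV, and 5.51, 5.57 and 4.98 in KO. Both calls were lost without any 1 R47H or CV array, without KO mouse 1, and in the fit of all genes. Cpe passed the filter only through R47H (mean of the other 6 arrays 5.10), and its adjusted p was 0.0572 in the fit of all genes. The call of Ndrg2 was lost also without KO mouse 2, without the sex term (adjusted p = 0.153), with the compared groups alone (0.118) and with mice of the same number as a block (0.056). The sodium pump subunit Atp1b2 stood at 1.20 ± 0.22 (limma adjusted p = 0.0541). It too passed the filter only through R47H (mean of the other 6 arrays 5.20), and its adjusted p was 0.0971 in the fit of all genes.

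Against KO, limma called 0 of these 20. At an unadjusted p under 0.05, 5 were higher and 1 lower, beside 3.53% and 2.15% of tested genes. Of the 20, Atp1b2, Gpr37l1, Clu and Cpe had to be high in R47H to be tested, which favours counts of genes higher in R47H. Ndrg2 stood at 1.10 ± 0.16 (limma adjusted p = 0.0535) and the fatty acid carrier Fabp7 at 1.56 ± 0.57 (adjusted p = 0.749). In CV minus KO 1 was called lower, where 0.259% of tested genes were. This was the zinc transporter Slc39a12, at -0.69 ± 0.12 (limma adjusted p = 0.0385), which read 5.11, 5.31 and 5.09 in CV and 5.97, 5.61 and 6.0 in KO. That call was lost without any 1 array except KO mouse 2 or R47H mouse 3, in the fit of all genes, and with the compared groups alone (0.137). Every R47H array lay above every CV and KO array for 8 of the 36 genes, which holds for 1.44% of all genes.

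Genes that reactive astrocytes induce were counted in the same way. Of 22 listed, 20 had a probe set and 8 were tested. The median in R47H minus CV was -0.01 over the 20 and -0.60 over the 8 tested, and in CV minus KO 0.02 and 0.90. In R47H minus CV 0 were called higher and 3 lower (0.417% of all tested genes were called lower). The 3 were the filament gene Vim (-1.07 ± 0.13, limma adjusted p = 0.0134), the hyaluronan receptor Cd44 (-1.22 ± 0.19, adjusted p = 0.0307) and the membrane protein Emp1 (-1.73 ± 0.13, adjusted p = 0.00129). These 3 genes are also expressed by macrophages, and which cells gave their differences was not tested. In CV minus KO the same 3 were called higher, where 0.954% of tested genes were, by 1.87 ± 0.13 (Vim), 1.52 ± 0.19 (Cd44) and 1.69 ± 0.13 (Emp1), with adjusted p from 0.000549 to 0.00617. The call of Cd44 there was lost with the compared groups alone (adjusted p = 0.0639). In R47H minus CV the call of Vim was lost without R47H mouse 1 or 3 or any 1 CV array, and that of Cd44 without any 1 R47H or CV array or KO mouse 1 and in the fit of all genes, while Emp1 kept its call in each of these settings. Emp1 passed the filter only through CV (mean of the other 6 arrays 4.80), and in the fit of all genes its adjusted p was 0.00264 in R47H minus CV and 0.00191 in CV minus KO.

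Oligodendrocyte markers moved with the astrocyte transcripts. Of 20 listed, 17 had a probe set and 13 were tested. All 17 were higher in R47H than in CV (median 1.14, beside 0.00 over all genes). Of the 13 tested 8 were called, where 0.38% of all tested genes were called higher. Against KO all 17 were positive too (median 1.01, beside -0.01 over all genes), and 1 was called, where 0.0648% of tested genes were called higher. This was Ermn (1.62 ± 0.19, limma adjusted p = 0.0221), a call lost without any 1 R47H or KO array or CV mouse 3. Ermn and Fa2h, both called in R47H minus CV, passed the filter only through R47H (means of the other 6 arrays 5.02 and 5.30). In the fit of all genes their adjusted p was 0.0166 and 0.028 in R47H minus CV, and that of Ermn was 0.0477 in R47H minus KO. For 14 of the 17 every R47H array lay above every CV and KO array, which holds for 1.44% of all genes. Their mean level lay at 7.10 to 7.43 in R47H, 5.98 to 6.28 in CV and 6.04 to 6.61 in KO. The myelin genes Mag (1.37 ± 0.17, adjusted p = 0.0134), Mbp (1.14 ± 0.15, adjusted p = 0.0181) and Mobp (1.14 ± 0.16, adjusted p = 0.0235) and the lipocalin Apod (2.38 ± 0.37, adjusted p = 0.0327) were among those called in R47H minus CV. With mice of the same number as a block, Cldn11, a tight junction gene of myelin and one of the 8, was not called (adjusted p = 0.0568), and it was lost also without sex (0.0729) and with the compared groups alone (0.0976). In the fit of all genes Cldn11 (limma adjusted p = 0.0803), Apod (0.0616) and Cryab (0.0577), also one of the 8, lost their calls in R47H minus CV. Mbp missed the threshold without the sex term (0.0517). The count of 8 fell to 0 without R47H mouse 1 or CV mouse 3, to 1 without R47H mouse 3 or CV mouse 1, and to 4 without R47H mouse 2 or CV mouse 2, and was 12 without KO mouse 3. Without KO mouse 3, 3 of them (Mbp, Mag and Apod) were also called in CV minus KO, where the count was otherwise 0.

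The lists were set side by side on each array, as the mean deviation of a list's genes from their means over 9 arrays. Astrocyte transcripts and oligodendrocyte markers were both highest in R47H and fell from mouse 1 to mouse 3 within KO. Their order within R47H and within CV was not the same. The 9 astrocyte transcripts stood at 0.48, 0.38 and 0.73 in R47H mice 1, 2 and 3, at -0.27, -0.44 and -0.42 in CV mice, and at 0.03, -0.06 and -0.42 in KO mice. The oligodendrocyte markers stood at 0.85, 0.52 and 0.74 in R47H, at -0.50, -0.30 and -0.60 in CV, and at 0.02, -0.18 and -0.54 in KO. KO mouse 3 was thus the lowest KO array in both lists. The 11 neutrophil markers were high in CV and in KO mouse 3, at -1.26, -0.71 and -0.17 in R47H, 0.82, 1.69 and 1.47 in CV, and -1.95, -1.55 and 1.65 in KO.

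Neuron markers (15 genes, 11 below the filter) lay between -0.11 and 0.08 on every array and microglial markers (0 below it) between -0.09 and 0.10. Of the other marker lists, endothelial genes (10 with a probe set, 6 below the filter) had a median of -0.02 in R47H minus CV. It was 0.00 for mural cell genes (9, 8 below) and 0.00 for oligodendrocyte precursor genes (9, 7 below). For ependymal and choroid plexus genes (7, 5 below) it was 0.08. Whether low signal kept these lists level was not tested. Over tested genes alone the medians were 0.19 (4 neuron), -0.11 (4 endothelial), -0.08 (1 mural), 0.61 (2 precursor) and 1.56 (2 ependymal and choroid plexus). In the last list Ttr, the transthyretin of the choroid plexus, stood at 2.97 ± 0.75 (limma adjusted p = 0.152), with 10.07, 8.96 and 11.29 in R47H, 7.35, 6.68 and 7.36 in CV, and 6.03, 8.81 and 6.36 in KO. Its arrays were spread by several log2 units within R47H and KO, and R47H mouse 3, highest for 5 of the astrocyte transcripts, was highest here too. The part of oligodendrocyte, neutrophil or choroid plexus RNA in the astrocyte transcripts' differences was not tested. In sorted populations such as these, fewer cells of a type and less RNA per cell cannot be told apart.

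**Figure D3:**
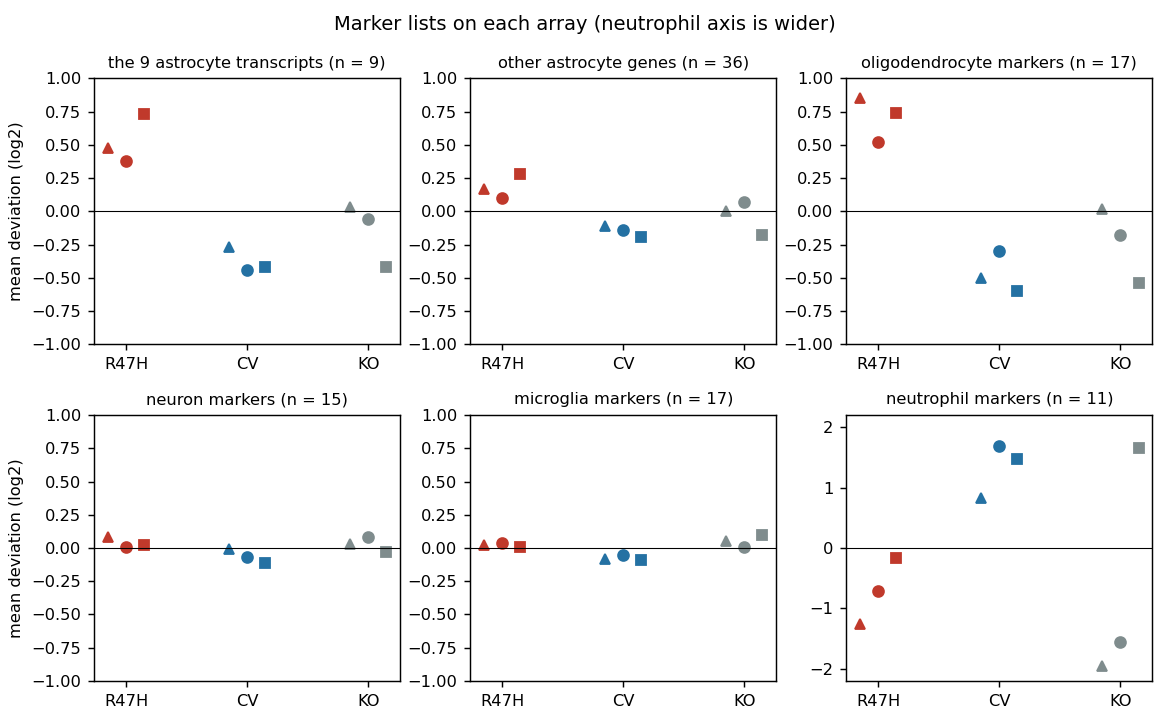
Mean deviation of each marker list's genes from their means over 9 arrays (log2, vertical axis), on every array of R47H, CV and KO. A triangle marks mouse 1, a circle mouse 2 and a square mouse 3, and the neutrophil axis covers a wider range. Astrocyte transcripts and oligodendrocyte markers are highest in R47H (0.38 to 0.73 and 0.52 to 0.85), and KO mouse 3 lies near CV in both.

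**Figure D4:**
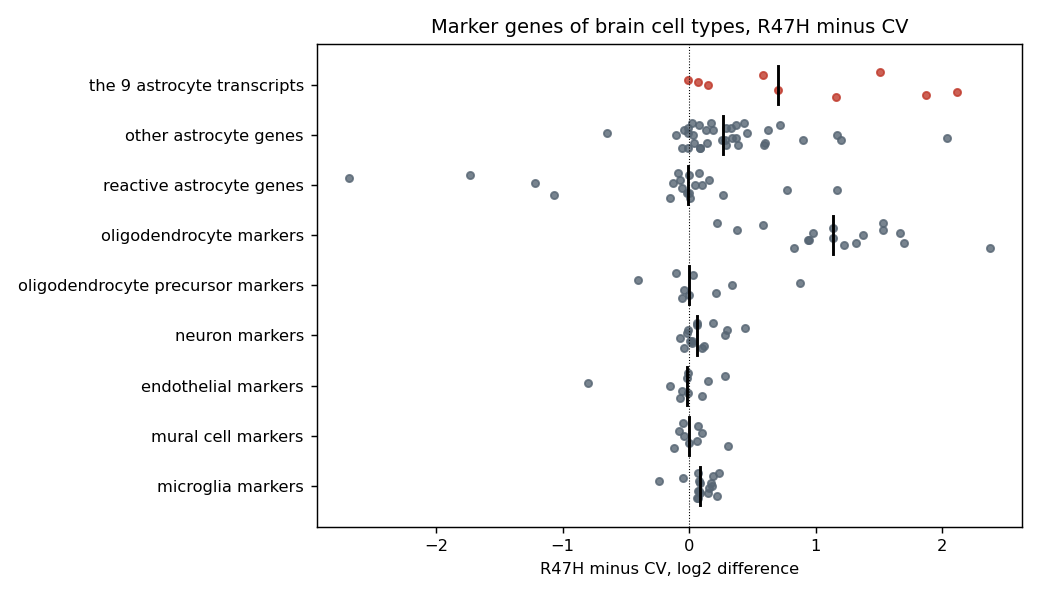
R47H minus CV log2 differences (horizontal axis) of every gene with a probe set in each marker list, 1 point per gene and the list's median as a bar. The median was 0.70 for the 9 astrocyte transcripts, 0.27 for further astrocyte genes, 1.14 for oligodendrocyte markers and 0.09 for microglial markers.

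The tested genes outside the 9 whose course over the arrays was most like theirs were found by the root mean square difference between centred profiles, taken against the mean profile of the 6 tested members. The nearest 8 were Csrp1 (0.13 log2 units), Gprc5b (0.14), Ndrg1 (0.15), Aplp1 (0.16), Pex5l (0.17), Olig1 (0.17), Cpe (0.18) and Clip3 (0.18). Olig1 is a transcription factor of the oligodendrocyte lineage, and Olig1 and Cpe are the only ones of the 8 found in the marker lists used here. For single members the nearest gene was Car2, carbonic anhydrase 2, for both S100b (0.34) and Sparcl1 (0.21), and Atp1b2 for both Aldoc (0.20) and Gja1 (0.25). This likeness is a description over 9 arrays that share the genotype differences described above. Slc1a2, one of the 6 in the mean profile, and the neighbours Cpe and Atp1b2 passed the filter only through R47H. Searching tested genes alone thus favours neighbours that are high in R47H.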

How the data were processed

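Expression was measured on 1 array per mouse in 9 mice. The deposited values are log2 levels of 35556 probe sets, as read from their range of 1.31 to 13.9. No source used here gives the authors' background correction, normalization or probe summary. The platform annotation gave 1 symbol for 21789 probe sets, several for 1621 and none for 12146. Only probe sets with 1 symbol were used, the one with the highest mean where a gene had several.

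Linear models (limma 3.58.1 in R 4.3.3) were fitted to the 10795 genes with a mean of at least 5.31, with terms for genotype and sex (5 residual and 3.73 prior degrees of freedom, median residual SD 0.12), and p-values were adjusted over those genes. The model was also run on simulated data with independent normal errors. Those data had neither values shared between arrays nor deviations common to an array's genes, so that run does not test the model against them. Other settings were no filter, no sex term, the compared groups alone, other eBayes options, median centring, quantile normalization, mean probe sets, a replicate block and leaving out each array. Members and lists were chosen with earlier results of these data known. Named by rule were the members, called list genes with up to 4 of the smallest p per list, and the nearest profiles. Same-numbered R47H and CV mice deviated together in each of 3 pairs (correlations 0.33, 0.20 and 0.20). The replicate block treats mice of the same number as matched, a choice that rests on these correlations and, for mouse 1, on shared sex. The main model has no such term, so its SE and p-values are unpaired, and no label used here pairs the mice. Pairs with KO did so for mouse 1 (0.36 with R47H, 0.32 with CV) and mouse 3 (0.15 and 0.21), but not for mouse 2 (0.00 and -0.04). Pairs of different number ran from -0.39 (CV mouse 1 with KO mouse 3) to 0.21 (CV mouse 2 with KO mouse 3), and R47H mouse 2 with KO mouse 3 gave 0.20. The deviations were taken from means of 3 arrays, so the values of the pairs are not separate evidence of matching. A probe set can also bind close paralogs, which was not checked.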

Additional observations from a re-analysis of the deposited data

Results flagged for a closer look

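Mt3 was the member for which the female difference and every pairing of the males had opposite signs. In R47H minus KO it stood at 0.29 in the females and at -0.10 to -0.04 in the males, and in CV minus KO at 0.27 in the females and at -0.29 to -0.04 in the males. A test of the interaction between genotype and sex in limma gave an adjusted p of 0.999 and 0.987, so neither difference passed. Both comparisons use the same KO female, whose value of 5.88 was the lowest of the 9 arrays, and each genotype has 1 female. By the mean of the male pairings, 2 more members differed in sign in CV minus KO, Gfap (-0.36 in the females and 0.30 in the males, from -0.01 to 0.61) and Aldoc (0.01 and -0.26, from -0.61 to 0.09).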

How the results depend on the processing

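In R47H minus CV the count of 2 members called (S100b and Sparcl1) was the same without the filter, without sex, with either scaling, with the compared groups alone, with other eBayes options and with the replicate block, and ran from 0 to 2 over single removals. In R47H minus KO it was 0 in every setting but trend and robust options, which gave 1 (Sparcl1, adjusted p = 0.0441). In CV minus KO it was 0 to 1 over single removals, 1 without KO mouse 3, and the F-test's count of 2 ran from 0 to 2. Over all tested genes, R47H minus KO gave 9 calls, 3 without sex, 15 with trend and robust options, 1 with the compared groups alone and 0 to 7 over single removals, the 0 without R47H mouse 3 (534 genes at an unadjusted p under 0.05). CV minus KO gave 131, 77 without sex, 54 with the compared groups alone and 59 to 172 over single removals. R47H minus CV gave 86, 48 without the filter and 9 to 132 over single removals. Fewer arrays or more genes tested are part of these settings, and the cause was otherwise not tested. Mt3 changed sign over single removals (-0.08 to 0.11 in R47H minus KO, -0.15 to 0.06 in CV minus KO, -0.01 to 0.16 in R47H minus CV), Gfap did so in CV minus KO (-0.09 to 0.25) and Aqp4 in R47H minus KO and R47H minus CV (-0.05 to 0.03 in each), and Slc1a2 in CV minus KO ran from -0.22 to 0.00. With the replicate block, R47H minus KO, CV minus KO and R47H minus CV gave 11, 136 and 83 calls, the last with S100b and Sparcl1 among them. No member's call changed with it. The median difference over all tested genes was at most 0.043 in size under either scaling.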
